A study of Homo sapiens with 60 samples.

Results

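The genes described here are 9 members of the MHC class I presentation pathway, of 19712 genes in the count table: the classical heavy chains HLA-B and HLA-C, the non-classical heavy chains HLA-E and HLA-F, the shared light chain B2M, the peptide transporter TAP1 and TAP2, the loading factor TAPBP, and the regulator NLRC5. They were chosen by name for their place in the pathway, with earlier results of these data known. All 9 passed the filter on low counts in each of the 4 cell lines. RNA was sequenced from PC9, HCC827, H1975 and HCC2935, which are EGFR-mutant lung adenocarcinoma lines, in 5 arms of 3 biological replicates each, 60 libraries in all. The arms were DMSO vehicle for 24 h, 500 nM of the EGFR inhibitor osimertinib for 24 h (acute), 500 nM osimertinib for 21 days, which leaves drug-tolerant persister cells (DTP), and DTP cells from which the drug was then withdrawn for 24 h (short washout) or for longer (long washout, labelled as lasting until growth resumed). The long washout lasted 7 days in PC9, 4 days in HCC827, 3 days in H1975 and 10 days in HCC2935, so it is not the same interval in every line. Each line is a single culture model from 1 tumor, no other EGFR inhibitor or dose was compared, and the DTP arm holds only cells that lived through the drug.

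MHC class I molecules show short peptides from inside the cell to CD8 T cells. A heavy chain pairs with beta-2 microglobulin, the B2M product, and is held near the TAP1 and TAP2 transporter by tapasin, the TAPBP product, while peptides cut by the proteasome are pumped into the endoplasmic reticulum and loaded. HLA-E and HLA-F are known mainly as ligands of receptors on natural killer cells. NLRC5 is a transactivator of class I promoters, and interferons raise most genes of the pathway, together with the immunoproteasome subunits that alter how proteins are cut.

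The promoters of class I genes carry known elements for interferon regulatory factors, NF-kappaB and the NLRC5-containing enhanceosome. RefSeq promoter windows of 250 bases (GRCh38.p14) were found for 7 of the 9 genes, with a pair of windows for TAP1 and none for HLA-E or NLRC5. The bases of the HLA-B, HLA-C, B2M and TAP2 windows that also lie before the GENCODE v29 gene model are printed, since these genes include the member with the largest change in DTP of PC9, HCC827 and H1975 (HLA-B), its close relative (HLA-C), the light chain (B2M) and the member called lower under acute drug (TAP2). They lie at chr6:31357189-31357429 (minus strand), chr6:31272131-31272342 (minus strand), chr15:44711267-44711486 (plus strand) and chr6:32838781-32838989 (minus strand), are written 5′ to 3′ along the gene, and carry motif matches in capitals.
HLA-B: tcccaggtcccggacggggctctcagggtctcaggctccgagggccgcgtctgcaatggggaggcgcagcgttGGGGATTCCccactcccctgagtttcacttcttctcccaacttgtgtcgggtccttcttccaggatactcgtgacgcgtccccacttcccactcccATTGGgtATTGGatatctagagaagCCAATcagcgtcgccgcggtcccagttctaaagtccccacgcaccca
HLA-C: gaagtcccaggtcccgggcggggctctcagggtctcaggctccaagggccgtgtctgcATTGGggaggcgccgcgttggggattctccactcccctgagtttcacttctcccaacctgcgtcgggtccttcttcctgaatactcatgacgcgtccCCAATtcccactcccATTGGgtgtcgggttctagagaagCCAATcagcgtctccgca
B2M: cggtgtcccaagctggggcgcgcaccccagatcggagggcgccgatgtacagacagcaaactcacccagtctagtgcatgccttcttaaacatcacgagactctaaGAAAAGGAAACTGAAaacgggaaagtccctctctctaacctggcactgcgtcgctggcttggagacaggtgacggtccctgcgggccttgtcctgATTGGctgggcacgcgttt
TAP2: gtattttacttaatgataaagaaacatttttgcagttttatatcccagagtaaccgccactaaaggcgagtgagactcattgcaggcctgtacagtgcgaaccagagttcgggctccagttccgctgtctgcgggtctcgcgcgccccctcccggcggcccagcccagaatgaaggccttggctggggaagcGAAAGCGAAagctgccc

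The capitals mark matches on either strand to GAAANNGAA (interferon-stimulated response element), TTCNNNGAA (GAS), GGGNNTTCC (kappaB), CCAAT (Y box) or TGACGCA or TGACGTCA (X2 or CRE), and neighbouring matches may overlap. Of 35116 RefSeq windows of this length, 6.88% held the response element, 6.57% GAS, 5.78% kappaB, 32% the Y box and 3.69% the X2 or CRE letters. The HLA-B window held a kappaB match 177 bases before the start and 3 Y box matches, and the HLA-C window held 4 Y box matches and no kappaB match. B2M held 2 overlapping response element matches 144 and 138 bases before its start and a Y box match. TAP2 held a response element match 58 bases before its start and none of the other motifs. Among the windows not printed, HLA-F held a response element match and 2 Y box matches, TAPBP 2 response element matches and a kappaB match, and the windows of TAP1 together 2 response element matches, a GAS match and a Y box match. A match is a string of letters and was not tested as a binding site.

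The libraries held 17715463 to 49134084 estimated counts (median 30129927). All 60 were most alike to a library of their own line, and 47 to one of their own group. In all libraries 5 epithelial markers (EPCAM, keratins and a cadherin) summed to at least 1636 TPM (a level scaled for transcript length and library size). The T cell marker CD3E stayed at or below 0.246 TPM, and of 9 markers of other cell types CD68 and COL1A1 were above 1 TPM in all 60 libraries. The epithelial sum differed between arms: it went from 6895 to 7048 TPM under DMSO to 12550.5 to 13641 TPM under acute drug in PC9, from 10048.5 to 10479 TPM to 4724 to 5168 TPM in HCC2935, and from 2350 to 2953 TPM to 3225 to 3926 TPM in H1975. In HCC827 it was 6220 to 7924 TPM under DMSO, 4437 to 5303 TPM under acute drug and 2350 to 3312 TPM in DTP. The 9 other-cell markers together went from 119.9 to 165 TPM under DMSO to 223 to 318 TPM under acute drug in H1975, from 85.8 to 124 TPM to 146 to 173 TPM in HCC827, from 38.5 to 45.7 TPM to 43.1 to 59.1 TPM in PC9 and from 101 to 143 TPM to 69.3 to 106 TPM in HCC2935. Growth-related genes differed too: over the 4 lines 6 proliferation genes summed to 539.6 to 1012 TPM under DMSO, 149 to 255 TPM under acute drug and 129 to 456 TPM in DTP, and 6 MAPK output genes to 117 to 296 TPM, 14.1 to 42.3 TPM and 25.9 to 95.1 TPM. The part of these marker sums in the class I results was not tested. Long washout replicate 3 of PC9 stood apart from its group: its 6 MAPK output genes summed to 34.0 TPM against 113 and 125 TPM in the others, near the 25.9 to 35.7 TPM of DTP. Proliferation genes in the H1975 long washout summed to 198 to 290 TPM, below the 395 to 611 TPM of its short washout and far below the 873 to 1012 TPM of DMSO, although the label describes growth as resumed. In the HCC827 long washout they summed to 292 to 356 TPM, against 262 to 566 TPM in its short washout, 239 to 456 TPM in DTP and 895 to 964 TPM under DMSO.

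Before any drug, the lines differed widely in class I expression, and HCC2935 had the highest mean TPM of all 9 genes. HLA-B was at 13.5, 15.3 and 22.6 TPM in the 3 PC9 libraries under DMSO, at 81.3, 73.2 and 106 TPM in HCC827, at 260.2, 296 and 213 TPM in H1975, and at 1361, 1143 and 1611 TPM in HCC2935. No library of one line overlapped with another line. The ratio of the highest to the lowest line mean was 80.1-fold for HLA-B, 25.7-fold for HLA-F, 25.4-fold for HLA-C, 10.6-fold for TAP1, 9.92-fold for B2M, 7.56-fold for TAPBP, 5.57-fold for NLRC5, 4.77-fold for HLA-E and 2.05-fold for TAP2. In TPM, PC9 was the lowest line for all but HLA-C, for which HCC827 was lowest. In counts scaled to library size (CPM), HCC827 was also lowest for HLA-E (70.1 against 76.5 in PC9) and TAP2 (73.5 against 81.7). On that scale H1975 was highest for NLRC5 (79.4 against 76.9 in HCC2935). In bulk RNA, fewer cells expressing a gene and less RNA per cell cannot be told apart, and the HLA-B and HLA-C genes are near-identical and differ in sequence between people, so how reads were split between them may differ between lines.

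B2M was the most abundant member in every line under DMSO, with means of 546 ± 53.8 TPM (SD, n = 3) in PC9, 1042 ± 78.8 TPM in HCC827, 1359 ± 43.8 TPM in H1975 and 5423 ± 714 TPM in HCC2935. HLA-C was at 83.6 ± 5.51 TPM in PC9, 60.1 ± 4.65 TPM in HCC827, 100.2 ± 8.87 TPM in H1975 and 1525 ± 86.8 TPM in HCC2935. HLA-F was scarce in PC9, at 2.29 ± 0.700 TPM, against 15.2 ± 2.15 TPM in HCC827, 14.6 ± 1.89 TPM in H1975 and 58.8 ± 8.37 TPM in HCC2935. For HLA-F the levels of HCC827 and H1975 overlapped. NLRC5 split the lines into a low pair, PC9 at 7.86 ± 0.200 TPM and HCC827 at 9.55 ± 0.892 TPM, and a high pair, H1975 at 39.7 ± 8.41 TPM and HCC2935 at 43.8 ± 4.87 TPM. TAP2 was the most even, between 26.8 ± 1.26 TPM in PC9 and 55.04 ± 6.42 TPM in HCC2935.

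Between pairs of lines under DMSO, edgeR called 6 of the 9 members in HCC827 against PC9, where 62.9% of all genes tested were called, and 7 in H1975 against PC9 (63.4% of all genes). All 9 were called in HCC2935 against PC9 (67.4%) and in HCC2935 against HCC827 (64.9%), 8 in HCC2935 against H1975 (65.7%) and 7 in H1975 against HCC827 (56.7%). Most genes differed between these lines, and the count for HCC827 against PC9, which ranged from 5 to 7 when a library was left out, was near its background. HLA-B in HCC2935 exceeded PC9 by a log2 fold change of 5.89 ± 0.23 (SE), with an edgeR adjusted p of 4.2e-19. The neighbours that did not differ beyond their spread were PC9 and HCC827 for HLA-E (log2 fold change -0.09 ± 0.10), NLRC5 (0.16 ± 0.16) and TAP2 (-0.11 ± 0.17), PC9 and H1975 for HLA-C (-0.00 ± 0.11) and TAP2 (0.14 ± 0.17), HCC827 and H1975 for HLA-F (-0.20 ± 0.19) and TAP2 (0.25 ± 0.17), and H1975 and HCC2935 for NLRC5 (-0.03 ± 0.15).

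**Figure D1:**
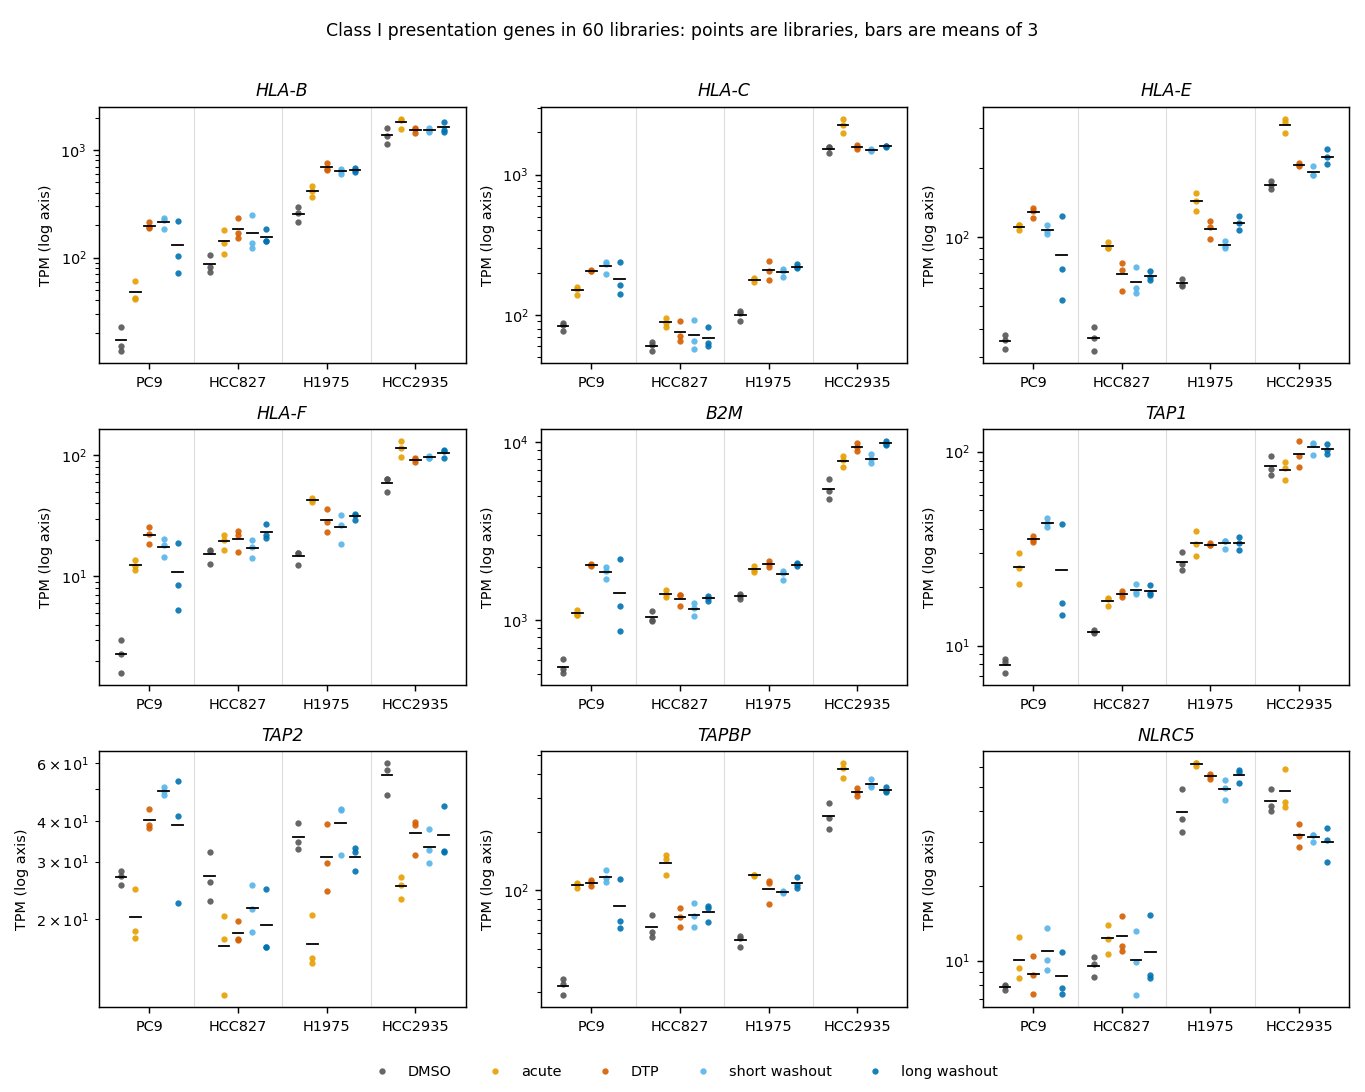
Level of each of the 9 genes in TPM (log axis) in every library, grouped by line and coloured by arm; points are libraries and short bars are the means of 3. The HCC2935 libraries lie highest for most genes, and the HLA-B levels of PC9 run from 13.5 TPM under DMSO to 235 TPM in the short washout.

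After 24 h of osimertinib 6 or more of the 9 members were higher than under DMSO in each line. HLA-C, HLA-E, B2M and TAPBP rose in all 4 lines, as did HLA-B. In PC9 7 members rose and 0 fell, where 34.5% of all genes tested were called higher and 31.7% lower. In HCC827 6 rose and 1 fell (18.7% of all genes higher, 20.2% lower), but without acute replicate 2 the count called there fell from 7 to 4, with HLA-B, HLA-C and TAP2 lost (29.5% of all genes called). In H1975 8 rose and 1 fell (27.8% and 23.8%), and in HCC2935 6 rose and 1 fell (24.9% and 22.2%). The median log2 fold change of the 9 members was 1.49 in PC9, 0.46 in HCC827, 0.73 in H1975 and 0.57 in HCC2935, while that of all genes tested lay between 0.02 and 0.10. The acute, DTP and washout comparisons with DMSO share the same 3 DMSO libraries in each line and are not independent of one another.

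Among heavy chains, HLA-E was at 35.8, 37.6 and 32.7 TPM under DMSO in PC9 and at 108, 113 and 113 TPM under acute drug, with no overlap. Its log2 fold change was 1.68 ± 0.18 (edgeR adjusted p = 1.61e-06) in PC9, 1.27 ± 0.11 (1.26e-06) in HCC827, 1.22 ± 0.10 (8.51e-07) in H1975 and 0.91 ± 0.08 (3.64e-07) in HCC2935. HLA-F was at 1.58, 2.29 and 2.98 TPM under DMSO in PC9 and at 13.5, 12.1 and 11.3 TPM under acute drug, again with no overlap. Its log2 fold change was 2.45 ± 0.35 in PC9, 1.58 ± 0.20 in H1975 and 0.99 ± 0.12 in HCC2935, while in HCC827 it was 0.28 ± 0.22 (edgeR adjusted p = 0.323) and did not pass the test. The HLA-F locus overlaps an antisense gene, and the strand setting of the library kit is not given in the sources used here. HLA-B rose by a log2 fold change of 1.49 ± 0.29 in PC9, 0.63 ± 0.23 in HCC827, 0.73 ± 0.12 in H1975 and 0.44 ± 0.11 in HCC2935. The HCC827 call for HLA-B (edgeR adjusted p = 0.0446) was lost in 7 of 15 refits that left out a library, with adjusted p up to 0.208, and HLA-C in HCC827 (0.49 ± 0.14) was lost without acute replicate 2 or DMSO replicate 2 (adjusted p = 0.0559 and 0.0622).

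Among the partners of the heavy chains, TAPBP, the tapasin gene, rose by a log2 fold change of 1.75 ± 0.14 in PC9, 1.04 ± 0.11 in HCC827, 1.15 ± 0.11 in H1975 and 0.84 ± 0.09 in HCC2935. In HCC2935 TAPBP was at 237, 208 and 284 TPM under DMSO and at 429, 383 and 456 TPM under acute drug. Acute and DMSO libraries did not overlap for TAPBP in any line. B2M rose by 1.02 ± 0.20 in PC9, 0.37 ± 0.08 in HCC827, 0.54 ± 0.08 in H1975 and 0.57 ± 0.09 in HCC2935 on the log2 scale. TAP1 rose by 1.69 ± 0.27 in PC9, 0.46 ± 0.10 in HCC827 and 0.37 ± 0.10 in H1975, and gave -0.03 ± 0.12 (edgeR adjusted p = 0.875) in HCC2935. The H1975 call for TAP1 was lost without acute replicate 2 (edgeR adjusted p = 0.0581).

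TAP2, the other subunit of the transporter, fell in HCC827, H1975 and HCC2935, in the first pair of which TAP1 rose. Under DMSO its levels in H1975 were 32.9, 39.3 and 34.5 TPM, and under acute drug 20.6, 14.7 and 15.2 TPM, with no overlap. In HCC2935 they were 47.8, 57.2 and 60.1 TPM under DMSO and 27.0, 25.5 and 23.1 TPM under acute drug, also with no overlap. TAP2 fell by 1.04 ± 0.17 on the log2 scale in H1975 (edgeR adjusted p = 0.000127), by 1.08 ± 0.15 in HCC2935 (2.07e-05) and by 0.78 ± 0.21 in HCC827 (0.00873). In PC9 its log2 fold change was -0.39 ± 0.19 (edgeR adjusted p = 0.0875). The HCC827 call for TAP2 was lost without acute replicate 2 (edgeR adjusted p = 0.0516), and in PC9 TAP2 passed in 3 of 15 refits that left out a library, namely acute replicate 1, long washout replicate 2 or long washout replicate 3 (adjusted p from 0.00647 to 0.0327).

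NLRC5, the transactivator, passed the test under acute drug in H1975 and not in the other 3 lines. Its levels there were 32.8, 49.1 and 37.3 TPM under DMSO and 62.3, 62.5 and 60.5 TPM under acute drug, a log2 fold change of 0.68 ± 0.12 (edgeR adjusted p = 0.000232). In PC9 the values were 8.01, 7.93 and 7.63 TPM under DMSO and 9.38, 12.4 and 8.51 TPM under acute drug, which did not overlap in TPM but gave an edgeR adjusted p of 0.0832, and 0.0408 without acute replicate 3. In HCC827 and HCC2935 the NLRC5 log2 fold change was 0.30 ± 0.22 and 0.17 ± 0.13. The acute effect on NLRC5 was not called as different between the lines (edgeR adjusted p = 0.197).

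**Figure D2:**
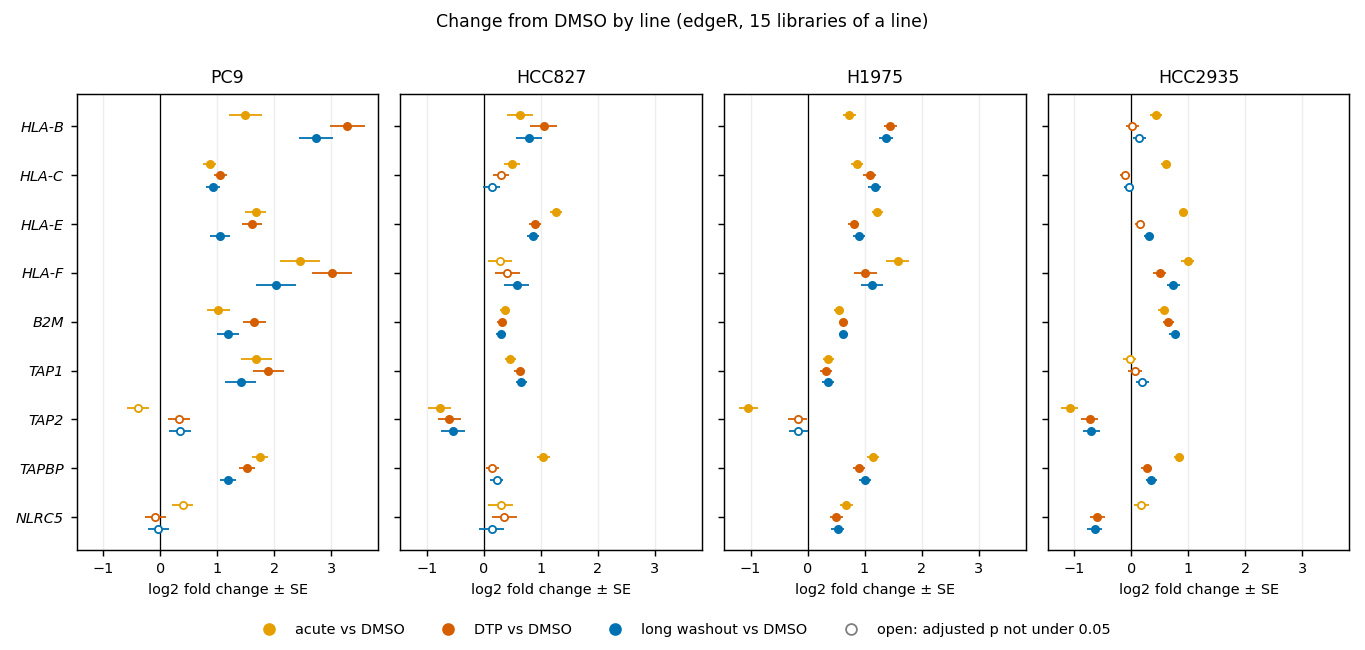
Log2 fold change with its SE for each of the 9 genes against DMSO in the acute, DTP and long washout arms, 1 panel a line, from edgeR with 3 libraries in each group; filled points have an adjusted p under 0.05. PC9 has the largest values, up to 3.28 for HLA-B in DTP, and TAP2 lies below 0 under acute drug in every line, though not past the test in PC9.

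In DTP cells the lines diverged. PC9 kept 7 members above DMSO and H1975 8, with 0 lower in either, whereas HCC827 had 4 higher and 1 lower, and HCC2935 3 higher and 2 lower. The share of all genes called was 35.7% higher and 33.5% lower in PC9, 23% and 20.4% in HCC827, 26% and 25.7% in H1975, and 27% and 25.8% in HCC2935. The HCC2935 counts were near its shares and do not set the members there apart from other genes. The median log2 fold change of the members was 1.61 in PC9, 0.81 in H1975, 0.36 in HCC827 and 0.07 in HCC2935, against 0.02 to 0.06 over all genes tested.

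HLA-B showed the spread between lines most plainly. In PC9 it went from 13.5, 15.3 and 22.6 TPM under DMSO to 193, 187 and 213 TPM in DTP, an 11.6-fold rise of the mean in TPM and a log2 fold change of 3.28 ± 0.31 (edgeR adjusted p = 6.72e-07). In H1975 it went from 260.2, 296 and 213 TPM to 662, 654 and 754 TPM (log2 fold change 1.45 ± 0.12, edgeR adjusted p = 6.64e-07). In HCC827 it went from 81.3, 73.2 and 106 TPM to 232, 170.4 and 152 TPM (1.05 ± 0.24, edgeR adjusted p = 0.00239). The DTP libraries lay above all DMSO libraries in these 3 lines. In HCC2935 the levels were 1361, 1143 and 1611 TPM under DMSO and 1592, 1451 and 1561 TPM in DTP, which overlapped, with a log2 fold change of 0.02 ± 0.11 (edgeR adjusted p = 0.894). PC9 thus reached in DTP an HLA-B level of 198 ± 13.6 TPM, still under the DMSO mean of H1975, 257 ± 41.8 TPM.

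HLA-C rose in DTP in PC9 (log2 fold change 1.05 ± 0.12) and H1975 (1.09 ± 0.11), and its values in HCC827 (0.30 ± 0.14) and HCC2935 (-0.10 ± 0.09) did not pass the test. HLA-E rose in PC9 (1.61 ± 0.18), HCC827 (0.89 ± 0.11) and H1975 (0.81 ± 0.10). In HCC2935 HLA-E was at 176, 163 and 168 TPM under DMSO and 211, 206 and 205 TPM in DTP. Those TPM values did not overlap, yet the edgeR log2 fold change was 0.15 ± 0.08 (adjusted p = 0.136), while limma on log2 TPM gave 0.30 (adjusted p = 0.00403). HLA-F rose in PC9 (3.02 ± 0.35), H1975 (1.02 ± 0.20) and HCC2935 (0.50 ± 0.12), and gave 0.41 ± 0.22 in HCC827 (edgeR adjusted p = 0.139). The median DTP effect over all genes tested also differed between the 2 scales, at 0.19 on the log2 TPM scale and 0.04 in edgeR in HCC2935, and at 0.30 and 0.06 in PC9.

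B2M rose in DTP in all 4 lines, by a log2 fold change of 1.65 ± 0.20 in PC9, 0.31 ± 0.08 in HCC827, 0.63 ± 0.08 in H1975 and 0.65 ± 0.09 in HCC2935, but the HCC827 call was lost when only the 6 libraries compared were fitted (0.31, edgeR adjusted p = 0.0617). In HCC2935 B2M went from 5307, 4775 and 6188 TPM under DMSO to 8889, 9911 and 9357 TPM, with no overlap. The light chain therefore rose in the line where HLA-B, HLA-C and HLA-E did not pass the test. TAP1 rose in PC9 (1.90 ± 0.28), HCC827 (0.63 ± 0.10) and H1975 (0.32 ± 0.10), and gave 0.07 ± 0.12 in HCC2935. The H1975 call for TAP1 was lost without DMSO replicate 1, DMSO replicate 3 or DTP replicate 3 (edgeR adjusted p from 0.0556 to 0.0929). TAPBP rose in PC9 (1.52 ± 0.14), H1975 (0.90 ± 0.11) and HCC2935 (0.27 ± 0.09), the last lost in 4 of 15 refits that left out a DMSO or DTP library, with adjusted p up to 0.129. In HCC827, where TAPBP had risen under acute drug, its DTP levels of 81.1, 73.2 and 64.8 TPM overlapped with 75.0, 57.5 and 61.3 TPM under DMSO (log2 fold change 0.15 ± 0.11).

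TAP2 stayed below DMSO in DTP of HCC2935 at 39.5, 38.8 and 31.5 TPM (log2 fold change -0.73 ± 0.14, edgeR adjusted p = 0.00051) and of HCC827 at 19.7, 17.4 and 17.3 TPM (-0.61 ± 0.21, 0.0286). The HCC827 value was lost in 4 of 15 refits that left out a library (edgeR adjusted p up to 0.119). In H1975 it gave -0.18 ± 0.16, and in PC9, where DTP levels of 38.1, 43.5 and 39.0 TPM lay above 27.0, 28.0 and 25.5 TPM under DMSO, edgeR gave 0.33 ± 0.19 (adjusted p = 0.133). The PC9 value for TAP2 passed with limma on log2 TPM (0.58, adjusted p = 0.0327) and without long washout replicate 2 (edgeR adjusted p = 0.0163). NLRC5 rose in H1975 (0.50 ± 0.12) and fell in HCC2935, where levels of 35.5, 31.7 and 28.7 TPM lay under 40.02, 41.96 and 49.3 TPM of DMSO (log2 fold change -0.59 ± 0.13, edgeR adjusted p = 0.00152).

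Set directly against acute drug, DTP cells of PC9 had more HLA-B, B2M and TAP2, and those of HCC2935 had less of most heavy chains. In PC9 3 members rose and 0 fell (33.9% of all genes tested were called in either direction), in HCC827 2 fell (29.4%), in H1975 2 rose and 2 fell (37.2%), and in HCC2935 6 fell and 0 rose (44.7%). The counts in PC9, HCC827 and H1975 were near these shares and do not set the members apart from other genes. HLA-B rose further in PC9, from 60.1, 40.9 and 41.8 TPM to 193, 187 and 213 TPM (log2 fold change 1.79 ± 0.29, edgeR adjusted p = 0.000331), and in H1975 (0.72 ± 0.12, 0.000428), with no overlap in either. In HCC2935 HLA-B fell by 0.41 ± 0.11 on the log2 scale (edgeR adjusted p = 0.00669), a call lost with limma on log2 TPM (-0.23, adjusted p = 0.14). HLA-C went in HCC2935 from 2492, 1991 and 2265 TPM under acute drug to 1626, 1521 and 1572 TPM in DTP, with no overlap, and fell by 0.70 ± 0.09 (edgeR adjusted p = 1.05e-05).

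HLA-E fell from acute drug to DTP by 0.76 ± 0.08 on the log2 scale in HCC2935, 0.41 ± 0.10 in H1975 and 0.38 ± 0.10 in HCC827, and gave -0.07 ± 0.17 in PC9. TAPBP fell by 0.89 ± 0.11 in HCC827 (edgeR adjusted p = 8.15e-05) and by 0.57 ± 0.09 in HCC2935 (0.00013). HLA-F fell by 0.49 ± 0.11 in HCC2935 and by 0.56 ± 0.19 in H1975, the latter lost in 5 of 15 refits that left out an acute or DTP library (edgeR adjusted p up to 0.132). NLRC5 fell by 0.77 ± 0.13 in HCC2935 (edgeR adjusted p = 0.00025). The transporter subunit and the light chain were the members that rose alongside HLA-B in PC9 or H1975. TAP2 rose from its acute level in PC9 (log2 fold change 0.72 ± 0.19) and H1975 (0.86 ± 0.17). B2M rose in PC9 (0.63 ± 0.20, edgeR adjusted p = 0.024), a call lost when any of the 6 acute or DTP libraries was left out (adjusted p up to 0.0719). Without long washout replicate 3, which enters this fit through the shared estimate of spread, 6 members in place of 3 were called in PC9, with HLA-C, HLA-F and TAPBP added (39.6% of all genes called).

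The size of the response differed between lines. In a fit of the DMSO, acute and DTP libraries of all 4 lines, the acute effect differed between lines for 6 members (B2M, HLA-B, HLA-E, HLA-F, TAP1 and TAPBP), where 40.2% of all genes tested were called. The DTP effect differed for all 9, where 63.5% were called. The smallest p for the acute effect was that of TAP1 (edgeR adjusted p = 5.98e-08), whose effect ran from 1.69 in PC9 to -0.03 in HCC2935. For the DTP effect it was HLA-B (7.26e-10), from 3.28 in PC9 to 0.02 in HCC2935. The line with the lowest DMSO level of HLA-B had the largest log2 fold change and the line with the highest level the smallest, and the DMSO libraries enter both quantities. The acute call for HLA-B (edgeR adjusted p = 0.00833) was lost in 3 of 36 refits that left out a library, namely PC9 DMSO replicate 1, PC9 DMSO replicate 2 or PC9 acute replicate 1 (adjusted p from 0.0544 to 0.0681).

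Few genes were called after a washout of 24 h. Against DTP, 0 of the 9 members were called in any line, where the share of all genes called was 5.92% in PC9, 0% in HCC827, 0.0585% in H1975 and 3.14% in HCC2935. The count was thus near its background. In PC9, HCC827, H1975 and HCC2935 the log2 fold change was -0.13, -0.20, -0.24 and -0.22 for B2M. For HLA-E it was -0.25, -0.12, -0.28 and -0.10. The sign differed between lines for the other members. In TPM, B2M and HLA-E lay below all DTP libraries in PC9, H1975 and HCC2935. In HCC827 edgeR called 0 genes, with 291 at an unadjusted p under 0.05, and DESeq2 and limma also called 0. HLA-B in PC9 was at 235, 184 and 221 TPM in the short washout, overlapping with 193, 187 and 213 TPM in DTP. B2M in H1975 was at 1849, 1685 and 1888 TPM against 2074, 1993 and 2150 TPM in DTP, with no overlap, and its log2 fold change of -0.24 ± 0.08 passed in DESeq2 (adjusted p = 0.0273) but not in edgeR (adjusted p = 0.186). With only the 6 PC9 libraries of the comparison in the fit, HLA-E (log2 fold change -0.26), TAP1 (0.29) and TAP2 (0.30) passed the edgeR test, and 22.2% of all genes were called. In H1975 DESeq2 called 2.72% of all genes. Same-numbered DTP and short washout libraries of H1975 deviated together. With a replicate block edgeR called 56 genes there in place of 9 (0.364%), with 0 members among them. That block was shared by all arms of the line, so a pairing of these arms alone was not tested.

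After the long washout, 0 members were called against DTP in HCC827, H1975 and HCC2935, where 0%, 0.0065% and 11.8% of all genes were called. HCC827 had 0 genes called by edgeR, with 502 at an unadjusted p under 0.05, 3 called by DESeq2 and 0 by limma. In HCC827, H1975 and HCC2935 the absence of member calls was near these shares of all genes. The 9 members in HCC2935 lay between -0.05 and 0.24 on the log2 scale. HLA-F had the highest value (edgeR adjusted p = 0.189), and its TPM values lay above all DTP libraries. In PC9, where 37.2% of all genes were called, HLA-E (log2 fold change -0.56 ± 0.17, edgeR adjusted p = 0.0222) and HLA-F (-0.98 ± 0.32, 0.0253) fell. These 2 of 9 members did not exceed that share and do not set the members apart from other genes. Both PC9 calls were lost in 4 of 15 refits that left out a library, namely long washout replicate 1 or 2 and, for HLA-E, DTP replicate 1 or 3 and, for HLA-F, DTP replicate 2 or 3 (edgeR adjusted p up to 0.0973).

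The 3 long washout libraries of PC9 did not behave as a group. HLA-B was at 103 and 72.0 TPM in replicates 1 and 2 and at 217 TPM in replicate 3, and TAP1 at 16.6 and 14.4 TPM against 42.3 TPM. B2M was at 1203 and 867 TPM in replicates 1 and 2 and at 2202 TPM in replicate 3. TAPBP was at 69.4 and 64.2 TPM and at 115 TPM. Replicate 3 lay above every DTP library for each of these 4 genes, and replicates 1 and 2 lay between DMSO and DTP. The summed level of 12 interferon-stimulated genes was 84.3 and 46.0 TPM in replicates 1 and 2 and 322 TPM in replicate 3.

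Without replicate 3, singled out here after its values were known, 7 of the 9 members fell from DTP to the long washout of PC9. Their log2 fold changes were -1.54 for HLA-F, -1.03 for TAP1, -1.02 for HLA-B, -0.87 for HLA-E, -0.82 for B2M, -0.56 for TAPBP and -0.29 for HLA-C, with edgeR adjusted p from 1.67e-05 to 0.00654 for the 5 that passed only then. In that fit 48.8% of all genes tested were called, above the 37.2% with the library kept. The count of members called in this comparison therefore rests on whether that library is kept, and the cause of its position was not tested.

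**Figure D3:**
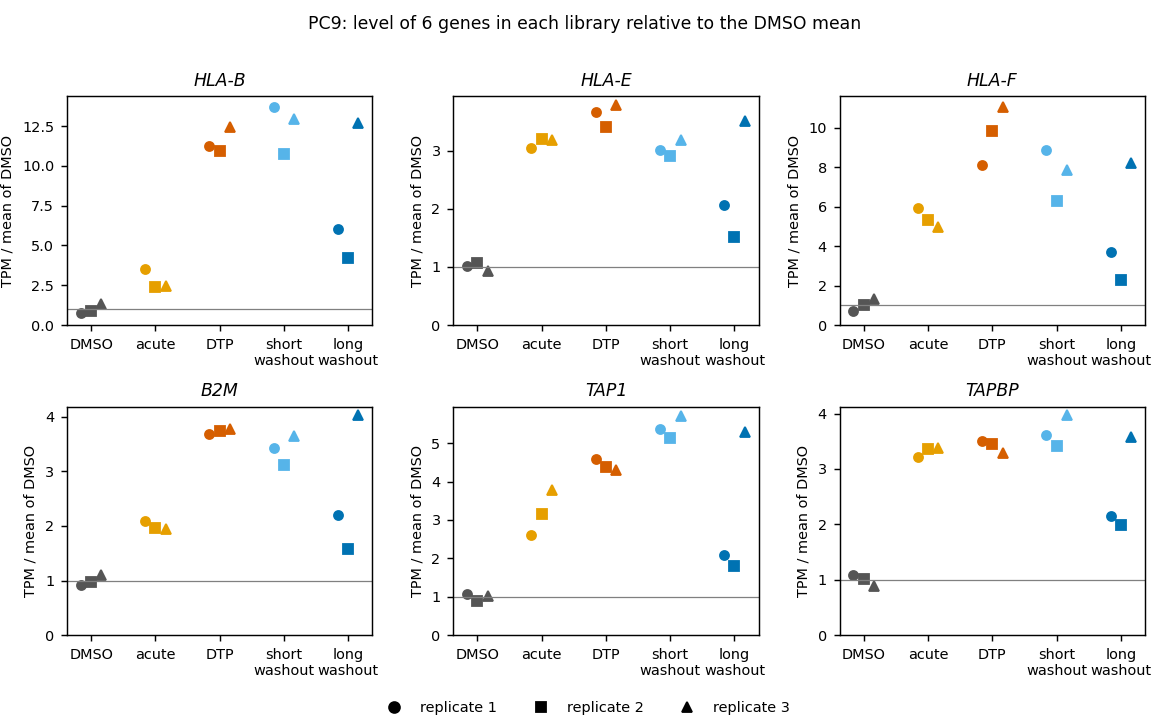
Level of 6 genes in each PC9 library divided by the mean of the 3 DMSO libraries (linear axes, TPM ratio), by arm, with a symbol for each replicate number. In the long washout, replicate 3 (triangle) lies with DTP while replicates 1 and 2 lie lower, as for HLA-B at 217 TPM against 103 and 72.0 TPM.

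Compared with DMSO, the long washout still held raised class I expression in most lines. In PC9 7 members were higher and 0 lower (23.4% of all genes tested were called higher and 21.5% lower), in HCC827 5 and 1 (21.9% and 20%), in H1975 8 and 0 (27.3% and 26%), and in HCC2935 4 and 2 (22.5% and 20.8%). The count called in HCC827 fell from 6 to 3 without DMSO replicate 2, a refit whose share of all genes called is not given here. HLA-B was raised by a log2 fold change of 2.73 ± 0.30 in PC9, 1.37 ± 0.12 in H1975 and 0.79 ± 0.23 in HCC827, and gave 0.14 ± 0.11 in HCC2935. The HCC827 call for HLA-B was lost without long washout replicate 3 or DMSO replicate 2 (edgeR adjusted p = 0.0513 and 0.0627). B2M was raised by 1.19 ± 0.20 in PC9, 0.30 ± 0.08 in HCC827, 0.62 ± 0.08 in H1975 and 0.77 ± 0.09 in HCC2935. Without long washout replicate 3 the PC9 values were smaller, at 2.23 for HLA-B and 0.79 for B2M. TAP1 then went from 1.42 to 0.84 and HLA-F from 2.03 to 1.44, and the same members stayed called. In HCC2935 NLRC5 (-0.64 ± 0.13) and TAP2 (-0.70 ± 0.14) remained lower than DMSO after 10 days without drug. In HCC827 the calls for HLA-F (0.58 ± 0.22) and TAP2 (-0.54 ± 0.21) were fragile, lost in 11 and 8 of 15 refits that left out a library (edgeR adjusted p up to 0.176 and 0.183). The H1975 call for TAP1 (0.35 ± 0.10) was lost without DMSO replicate 1 (edgeR adjusted p = 0.057).

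Across the 20 group means, after centring within each line, the 4 heavy chains, B2M, TAP1 and TAPBP had pairwise Pearson correlations of log2 CPM (counts scaled to library size) between 0.65 and 0.92. The correlations of TAP2 were lower, from -0.48 with HLA-E to 0.22 with HLA-B, and those of NLRC5 with the same 7 genes ran from 0.06 with B2M to 0.59 with HLA-C. These are descriptions over 20 points that share libraries and depth within a line. By the same measure the gene most like B2M was IFITM3 (r = 0.95), an interferon-induced membrane protein gene, the gene most like HLA-E was TMEM219 (0.97), that most like TAPBP was LRP10 (0.95), that most like TAP1 was LBH (0.94), and that most like HLA-F was GAA (0.95), the lysosomal alpha-glucosidase. HLA-B was followed most closely by NPY4R2 (0.95), HLA-C by HPD (0.94), TAP2 by LCLAT1 (0.91) and NLRC5 by EEF1A1 (0.88). TAP1 shares its locus with PSMB9 and PSMB8-AS1 on the opposite strand, TAP2 with the protein-coding gene AL669918.1 on its own strand, and the HLA-B and HLA-C gene models overlap in part, so reads could pass between these genes.

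Other genes of the pathway are given by lists, whose counts are to be read against the shares of all genes called higher and lower: under acute drug 34.5% and 31.7% in PC9, 18.7% and 20.2% in HCC827, 27.8% and 23.8% in H1975, and 24.9% and 22.2% in HCC2935. For DTP against DMSO these shares were 35.7% and 33.5% in PC9, 23% and 20.4% in HCC827, 26% and 25.7% in H1975, and 27% and 25.8% in HCC2935. Among proteasome genes, most immunoproteasome and PA28 genes rose under acute drug and most constitutive subunits fell, and the difference between the lists was not tested. Of the 5 immunoproteasome and PA28 activator genes, 4 rose in PC9, 3 rose and 1 fell in HCC827, 4 rose and 1 fell in H1975, and 4 rose in HCC2935. Of the 3 constitutive catalytic subunits that immunoproteasome subunits replace (PSMB5, PSMB6 and PSMB7), 3 fell in PC9, HCC827 and H1975 and 2 fell in HCC2935. PSMB8, an immunoproteasome catalytic subunit, rose by a log2 fold change of 1.40 ± 0.09 in PC9, 0.55 ± 0.12 in HCC827, 0.22 ± 0.07 in H1975 and 0.32 ± 0.11 in HCC2935. PSMB10, another such subunit, rose by 0.78 ± 0.10 in PC9, 0.81 ± 0.15 in HCC827, 0.50 ± 0.14 in H1975 and 0.82 ± 0.14 in HCC2935. PSME2, a subunit of the PA28 activator, fell in HCC827 (-0.46 ± 0.11) and H1975 (-0.46 ± 0.13).

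In DTP the counts parted between lines: in PC9 3 of the 5 immunoproteasome and PA28 genes were higher than DMSO and 0 lower, while 0 were higher and 2 lower in HCC827, 0 and 2 in H1975, and 0 and 5 in HCC2935. PSMB8 was raised by 0.99 ± 0.09 in PC9 and lowered in HCC2935 (-0.65 ± 0.11, edgeR adjusted p = 0.000163). PSME1, the other PA28 subunit, was raised by 0.31 ± 0.07 in PC9 and lowered in HCC2935 (-0.72 ± 0.11). From acute drug to DTP, 3, 2, 4 and 5 of these genes fell in PC9, HCC827, H1975 and HCC2935, with PSMB10 among them in each line, from -0.57 ± 0.10 in PC9 to -1.32 ± 0.15 in HCC827. Of all genes, 33.9%, 29.4%, 37.2% and 44.7% were called in either direction in this comparison. The constitutive subunits stayed lower than DMSO, 3 of 3 in PC9, HCC827 and HCC2935 and 2 of 3 in H1975.

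**Figure D4:**
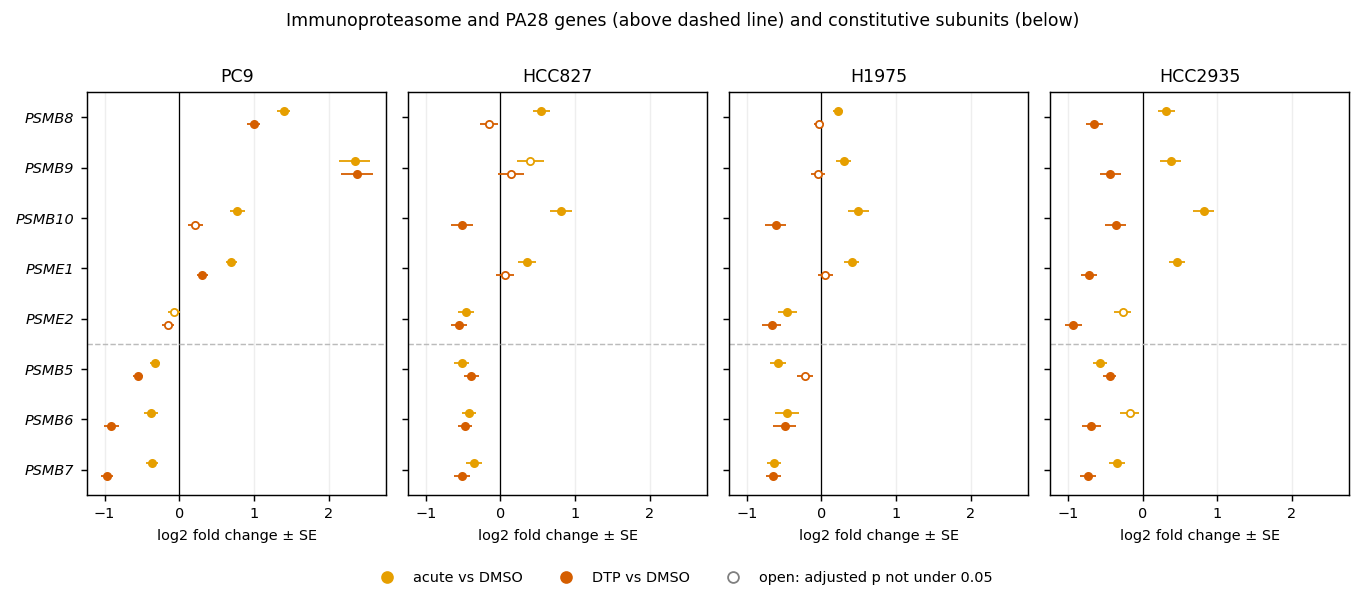
Log2 fold change with its SE against DMSO under acute drug and in DTP for the 5 immunoproteasome and PA28 genes (above the dashed line) and the 3 constitutive subunits (below it), 1 panel a line, from edgeR; filled points have an adjusted p under 0.05. In HCC2935 all 5 genes of the upper group lie below 0 in DTP, as PSMB8 at -0.65, while PSMB8 in PC9 lies at 0.99.

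Of 8 genes for peptide trimming and folding, 6 rose under acute drug in PC9, 2 rose and 3 fell in HCC827, 3 rose in H1975 and 1 rose in HCC2935. TAPBPL, a tapasin relative that edits peptides, rose in all 4 lines, by a log2 fold change of 2.15 ± 0.12 in PC9, 1.19 ± 0.13 in HCC827, 0.68 ± 0.19 in H1975 and 0.70 ± 0.14 in HCC2935. In DTP it was lower than DMSO in H1975 (-0.64 ± 0.19, edgeR adjusted p = 0.0104). ERAP1, an aminopeptidase that trims peptides in the endoplasmic reticulum, was higher in DTP in all 4 lines, by 0.88 ± 0.13, 0.53 ± 0.11, 0.71 ± 0.11 and 0.92 ± 0.12 in PC9, HCC827, H1975 and HCC2935. CALR, the chaperone calreticulin, fell in DTP of HCC2935 (-0.70 ± 0.08) and rose in H1975 (0.33 ± 0.11). In DTP, 3 of the 8 were higher and 2 lower in PC9, near the 35.7% and 33.5% of all genes called there, 2 and 3 in HCC827 (23% and 20.4% of all genes), 6 and 1 in H1975 (26% and 25.7%), and 4 and 1 in HCC2935 (27% and 25.8%).

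Class I related molecules outside peptide presentation were led by FCGRT, the heavy chain of the neonatal Fc receptor, which also pairs with B2M. It rose under acute drug by a log2 fold change of 3.03 ± 0.39 in PC9, 1.56 ± 0.29 in HCC827, 2.08 ± 0.21 in H1975 and 1.26 ± 0.13 in HCC2935. Of the 8 genes on this list 6 were tested, and under acute drug 3, 1, 3 and 2 rose and 1, 0, 0 and 1 fell in PC9, HCC827, H1975 and HCC2935. In DTP 4, 2, 3 and 1 rose and 1, 1, 0 and 1 fell. The counts that rose in HCC827 under acute drug, and those of HCC2935 in acute and DTP, were near the shares of all genes. MR1, which presents microbial metabolites, rose under acute drug in PC9 (1.52 ± 0.13) and H1975 (1.04 ± 0.12).

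Of 12 interferon-stimulated genes, 7, 8, 8 and 3 rose under acute drug in PC9, HCC827, H1975 and HCC2935, and 0 fell in any line. In DTP 10 of 11 tested rose in PC9 and 9 of 12 in HCC827, while 3 rose and 3 fell in H1975 and 1 rose and 1 fell in HCC2935. The H1975 counts were near the 26% and 25.7% of all genes called there. The median log2 fold change of the list in DTP was 4.00 in PC9, 1.19 in HCC827, -0.23 in H1975 and -0.00 in HCC2935. GBP2, an interferon-induced GTPase gene, rose under acute drug in every line, by 4.86 ± 0.34 in PC9, 2.24 ± 0.26 in HCC827, 2.94 ± 0.22 in H1975 and 1.21 ± 0.19 in HCC2935. OAS1, an RNA sensor gene, rose in DTP of PC9 (3.13 ± 0.50) and HCC827 (0.94 ± 0.29) and fell in H1975 (-1.48 ± 0.29) and HCC2935 (-0.81 ± 0.25). H1975 thus combined raised HLA-B and HLA-C in DTP with a list median below 0.

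Of 20 genes for interferon signalling and class I control, 13 rose and 2 fell under acute drug in PC9, 11 and 1 in HCC827, 7 and 4 in H1975, and 6 and 4 in HCC2935, the last near the 24.9% and 22.2% of all genes called there. In DTP the counts were 12 and 3 in PC9, 6 and 1 in HCC827, 9 and 2 in H1975, and 6 and 3 in HCC2935. The 6 higher in HCC2935 were near the 27% of all genes called higher there. STAT2, a transcription factor of the type I interferon response, rose under acute drug by 2.48 ± 0.33 in PC9, 1.56 ± 0.16 in HCC827, 2.21 ± 0.32 in H1975 and 1.94 ± 0.17 in HCC2935. EZH2, a histone methyltransferase known as a repressor of class I genes, fell in DTP in every line, by 0.95 ± 0.11, 1.01 ± 0.14, 1.38 ± 0.14 and 1.80 ± 0.14 on the log2 scale in PC9, HCC827, H1975 and HCC2935. SUSD6, whose product is known to take part in the turnover of class I molecules, rose in DTP in all 4 lines, by 2.82 ± 0.25 in PC9, 0.97 ± 0.21 in HCC827, 0.53 ± 0.13 in H1975 and 1.72 ± 0.19 in HCC2935. IFNGR1, a chain of the interferon gamma receptor, rose in DTP in all 4 lines, by 1.30 ± 0.17, 0.76 ± 0.12, 1.64 ± 0.18 and 0.42 ± 0.10, and had fallen under acute drug in HCC2935 (-0.50 ± 0.10). The medians of this list in DTP were 0.42, 0.17, 0.27 and 0.17 in PC9, HCC827, H1975 and HCC2935.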

How the data were processed

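The 60 RNA-seq libraries were made with a poly(A) mRNA kit, and the submitters' notes name HISAT2 2.1.0, Salmon 0.8.2 and the hg38 build. The authors deposited estimated counts per gene, which need not be whole, and were rounded here. The authors also deposited log2 TPM values, made by adding 0.01 before the logarithm, from which TPM was recovered for levels. Counts were scaled by TMM, filtered with filterByExpr and tested with edgeR 4.0.16 (quasi-likelihood F-test, R 4.3.3) in 1 fit of the 15 libraries of each line, and in 1 fit of 36 DMSO, acute and DTP libraries for differences between lines. P-values were two-sided, adjusted by Benjamini-Hochberg over all genes tested, and called under 0.05. Groups came from the sample titles. Alternatives were DESeq2 1.42.0, limma 3.58.1 on log2 TPM, RLE scaling, other count filters, a replicate block, own-library fits and leaving out each library. The labels do not say what a replicate number shares. Deviations from group means correlated above 0.1 in all 3 same-numbered pairs of DTP and short washout in HCC827 (0.371 to 0.662) and H1975 (0.231 to 0.562). The same held for DMSO and acute in HCC2935 (0.104 to 0.325). The reported fits held no replicate block in any comparison, these included, and the block was used only as an alternative. The fit was checked on simulated counts with known changes. Likeness was the Pearson correlation over 20 centred group means among all genes, listing up to 3 genes for each member, and some genes it ranked are not reported here. All 9 members were named. Up to 4 genes of each other list were named, those called in the most comparisons, then by mean absolute log2 fold change. The members, gene lists and motifs were chosen with earlier results of these data known. Promoter windows came from RefSeq and gene models from GENCODE v29, and 7 of the 9 members had a window. Depth ranged from 17715463 to 49134084 estimated counts, and precision was judged from the spread between replicates.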

Additional observations from a re-analysis of the deposited data

Results flagged for a closer look

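The responses below differed between the 4 lines in a test of the difference itself, an edgeR F-test over the DMSO, acute and DTP libraries with 3 libraries in each group. The acute effect differed for B2M (edgeR adjusted p = 0.000393), HLA-B (0.00833), HLA-E (0.000337), HLA-F (3.25e-06), TAP1 (5.98e-08) and TAPBP (0.000135). B2M ran from 0.37 in HCC827 to 1.02 in PC9 on the log2 scale, HLA-F from 0.28 in HCC827 to 2.45 in PC9, and TAPBP from 0.84 in HCC2935 to 1.75 in PC9. The DTP effect differed for B2M (edgeR adjusted p = 9.51e-10), HLA-B (7.26e-10), HLA-C (7.33e-08), HLA-E (7.89e-09), HLA-F (8.97e-09), NLRC5 (0.000346), TAP1 (3.63e-09), TAP2 (0.0013) and TAPBP (2.35e-08). NLRC5 ran from -0.59 in HCC2935 to 0.50 in H1975 and TAP2 from -0.73 in HCC2935 to 0.33 in PC9 in log2 fold change. Groups of 3 libraries are too small for the test of outlying samples used here, so none was run.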

How the results depend on the processing

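Of 2088 member values recomputed under another test, scaling, filter or design, 2045 kept their side of the threshold and any called direction, 16 lost and 26 gained a call, and 1 reversed. HLA-C in H1975 against PC9 under DMSO changed from -0.00 to 0.26 (limma on log2 TPM, adjusted p = 0.034). Of 5832 values with a library left out, 5734 were kept, 72 lost and 26 gained a call, and 0 reversed. Over both, 94 values that passed in neither fit had the opposite sign. The count of members called in PC9 for DTP against acute drug was 3, where 5036 of 14866 genes tested were called. It was 6 from its own 6 libraries (5760 of 14467 genes called), with a range of 2 to 6 when a library was left out. For PC9 long washout against DTP it was 2 (5532 of 14866 genes called), and 4 with limma on log2 TPM (5293 of 14866). It was 4 on log2(TPM + 1) (5692 of 14866) and 0 from its own 6 libraries (2496 of 14424). With a library left out it was 0 to 7, where 48.8% of all genes were called without long washout replicate 3. For short washout against DTP the member count was 3 in PC9 from its own 6 libraries (22.2% of all genes called). It was 1 in H1975 with DESeq2 (2.72%), against 0 in the reported fits. In HCC827 for acute drug against DMSO the member count ranged from 4 to 7 with a library left out. It was 4 without acute replicate 2, where 29.5% of all genes were called. For the HCC827 long washout against DMSO it ranged from 3 to 6. It was 3 without DMSO replicate 2, a refit whose share of all genes called is not given here. The cause was not tested.

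Scaling by log2 TPM moved the split of all calls toward higher in some comparisons and toward lower in others. In PC9 84.4% of called genes were higher in DTP than under acute drug (47.5% in edgeR). The shares there were 66% for DTP against DMSO (51.6%) and 71.1% for long washout against DMSO (52.2%). In HCC2935 the shares were 63.2% for DTP against DMSO (51.1%), 70.4% for DTP against acute drug (51%) and 62.8% for long washout against DMSO (52%). The share of higher calls for long washout against DTP moved down, to 43.3% in PC9 (54.9% in edgeR) and 49.7% in HCC2935 (58%). It also moved down for acute drug against DMSO in HCC2935 (47.8%, 52.8% in edgeR) and DTP against acute drug in HCC827 (56.1%, 61%). On that scale HLA-C was called higher in PC9 DTP than under acute drug (0.46), as it was without long washout replicate 3 (0.20).

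Further calls turned on single libraries. Between lines under DMSO, TAP2 in HCC2935 against H1975 was lost without H1975 DMSO replicate 1, HCC2935 DMSO replicate 2 or HCC2935 DMSO replicate 3 (edgeR adjusted p from 0.0507 to 0.0636). TAPBP in H1975 against HCC827 was lost without H1975 DMSO replicate 3 or HCC827 DMSO replicate 1 (0.06 to 0.138), and TAP1 in HCC827 against PC9 without PC9 DMSO replicate 2 (0.0889). HLA-F in HCC827 DTP passed without DTP replicate 1 (0.0382), TAP2 in HCC2935 DTP against acute drug without DTP replicate 3 or long washout replicate 2 (0.0295 to 0.0312), and TAP2 in PC9 long washout against DMSO without long washout replicate 2 (0.00126).

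Deviations of same-numbered libraries correlated from -0.603 to 0.662 over 120 pairs, all above 0.1 in only 3 pairs of arms. With a replicate block, 285 of 288 values kept their call. B2M in PC9 long washout against DTP passed (-0.50, edgeR adjusted p = 0.0466), and HLA-B in HCC827 acute (0.64, 0.0581) and HLA-F in HCC827 long washout against DMSO (0.59, 0.0501) were lost. These comparisons are not among those 3 pairs of arms, where the block changed no member's call. The block gave each replicate number the same effect in all arms of a line. It could not model a pairing confined to some arms, so the effect of such a pairing on the calls was not tested. Depth was lowest in HCC827 (median 19689315 estimated counts), and with 3 libraries in each group small changes could not be told from the spread.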
